A study of Rattus norvegicus with 7 samples.

Results

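The last step of the retinal time course, from postnatal day 15 (P15) to postnatal day 21 (P21), was examined feature by feature. Small RNA of the retina of untreated Wistar WU rats was sequenced at 7 ages, and the libraries of P15 and P21 were compared here. Each library was made from the pooled RNA of 3 retinas, so each feature had 1 value per age and the spread between animals is unknown. The compared features were the 5006 of 5491 listed noncoding RNA features whose locus was at least 50 bases long, of which 493 were annotated as miRNA. They were chosen by length and age alone, without use of their values. The longest miRNA loci left out had 49 bases, and the shortest ones kept, Mir3562 among them, had 50.

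This step runs from about the time of eye opening to about the time of weaning. The retina already holds all of its neurons then, and photoreceptor outer segments and synapses reach their mature form. A miRNA is cut from a hairpin transcript and guides the silencing complex to messenger RNAs, mainly through its seed (bases 2 to 8). Other small RNAs have structural or catalytic roles. Spliceosomal snRNAs take part in splicing, snoRNAs guide chemical modification of ribosomal RNA, and 5S rRNA is part of the large ribosomal subunit.

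The mature sequences below belong to the miRNAs that the comparison turned on, with the seed in capitals. They were taken from RefSeq (GRCr8), in which 228 of the 326 miRNA features analysed had an entry. The deposited table has 1 value per hairpin, so the arm a read came from is not resolved. The first is carried by Mir29b1 and Mir29b2, which were higher at P21, and the next 3 belong to the mir-30 family, of which only the loci of the first were far lower.
rno-miR-29b-3p: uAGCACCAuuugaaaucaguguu
rno-miR-30c-5p: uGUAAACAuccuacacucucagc
rno-miR-30a-5p: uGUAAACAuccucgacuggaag
rno-miR-30e-5p: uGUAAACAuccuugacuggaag

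The following 3 share 1 seed, and only the first was called lower at P21.
rno-miR-32-5p: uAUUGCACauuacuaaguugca
rno-miR-25-3p: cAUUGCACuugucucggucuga
rno-miR-92a-3p: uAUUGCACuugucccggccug

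The last 6 come from other leading rises and falls, and from Mir96, a miRNA of sensory cells.
rno-miR-6327: cGGACUGUagauccaucuc
rno-miR-130a-3p: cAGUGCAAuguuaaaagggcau
rno-miR-138-5p: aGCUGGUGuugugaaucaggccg
rno-miR-153-3p: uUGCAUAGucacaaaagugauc
rno-miR-340-5p: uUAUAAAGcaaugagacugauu
rno-miR-96-5p: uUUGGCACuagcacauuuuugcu

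The values are FPKM, that is, fragments per kilobase of feature and per 1000000 mapped fragments. Because low values fall on whole-number multiples of the FPKM of 1 alignment, the alignments behind each value could be estimated, as 451109 at P15 and 1362228 at P21. The P15 value is the mean of 2 sets of alignments, a deep set of 387355 and a shallow set of 63754, so its precision is that of only 218976 alignments. P21 combines 4 sets with the precision of 989536 alignments. Counting intervals (95%, exact, conditional on the sum) rest on these figures and cover counting error only. They leave out the animals, and PCR copies were counted as if each were its own molecule. Features with a mean of at least 20 alignments over the 7 ages were compared, which 326 of the 493 miRNA features and 1944 of all 5006 features passed. A feature was called higher or lower at a 2-fold difference on the scale of log2(FPKM + 1), P21 minus P15, with no test.

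Of the 326 miRNA features, 78 were at least 2-fold higher at P21 and 22 were at least 2-fold lower. These are 23.9% and 6.75% of the miRNA features, against 21.1% and 7.41% of all features compared. The miRNA shares were near these pooled shares, which include the miRNAs and cover unlike classes. For example, 14.2% of lincRNA and 59.3% of rRNA features were called higher. The median miRNA difference was 0.31 (95% interval of the median over features 0.21 to 0.42). The summed signal of all features was itself 0.32 higher at P21 on the log2 scale, a ratio of 1.25. Without the filter, 29.8% of the 493 miRNA features were called higher and 9.53% lower, against 23.1% and 14% of all 5006. With both libraries scaled to their summed signal, 49 miRNA features were called higher and 43 lower, which is 15% and 13.2%, against 14.5% and 14.1% of all features, so the excess of rises depends on the scale. Differences are given as deposited unless stated, and a miRNA with a value near 0.32 kept its share of the library.

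The counting interval lay wholly above 0 for 67 of the 78 features and wholly below 0 for 19 of the 22. The 2 sets behind P15 allow a second look at precision. They could be separated for 245 of the 326 miRNA features, those with few enough alignments. The variance between the sets was 3.69 times what counting alone gives, a spread 1.92 times as wide. Widened intervals were therefore also computed, with the alignments of both ages divided by 3.69. Over 132 better covered miRNA features, the median gap between the sets was 0.70, and 30.3% differed at least 2-fold between them. The shallow set was higher by a median of 0.61, so much of this gap lay in 1 direction. Between P15 and P21, 30.7% of the 326 features differed at least 2-fold. That is a similar share, but over more features and between combined values instead of single sets. With the widened intervals, 42 of the 78 and 12 of the 22 remained on 1 side of 0. Both sets of P15 were at least 2-fold below P21 for 42 of the 65 separable features called higher. Both were at least 2-fold above P21 for 7 of the 16 called lower.

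**Figure D1:**
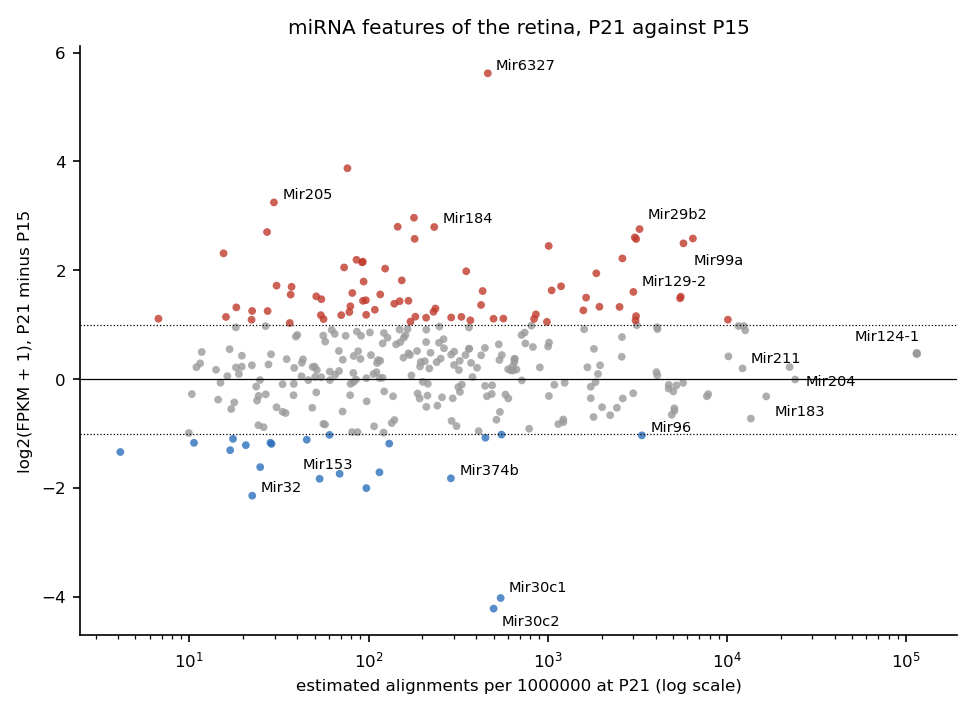
Each point is 1 of the 326 miRNA features. The horizontal axis gives estimated alignments per 1000000 at P21 (log scale), and the vertical axis gives log2(FPKM + 1) at P21 minus P15. Red points are at least 2-fold higher at P21 (78) and blue points at least 2-fold lower (22). Mir6327 stands highest, and Mir30c1 and Mir30c2 stand far below the other features.

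The loci of miR-29b were the abundant miRNAs with the largest rise. This family is known to target collagen and DNA methyltransferase messages and to accumulate as tissues mature. Mir29b2 (chr13:113782057-113782140, Rnor_6.0, plus strand) measured 10672.8 FPKM at P10, 30344.1 at P15 and 205047 at P21. Between the last 2 ages it differed by 2.76 (counting interval 2.51 to 3.02, widened 2.27 to 3.28). Mir29b1 (chr4:58344310-58344390, minus strand) measured 10189.1, 28916.3 and 175781 FPKM at the same ages, a difference of 2.60. These loci share the mature sequence printed first above, so reads of that arm cannot be assigned to one of them. The level of both was highest at P21 and had already risen from P10 to P15, by 1.51 at each locus.

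The other features of these loci were higher as well. Mir3556a, on the plus strand at chr4:58343919-58344036, went from 13599.4 to 81518 FPKM, a difference of 2.58. Its listed mature sequence of 18 bases is the reverse complement of a stretch of miR-29a-3p. Mir3556b, on the minus strand at chr13:113782577-113782683, differed by 1.48, and 20 of its 20 bases are the reverse complement of miR-29c-3p. Whether counting used the strand is not given in the sources used here, so reads of Mir3556a or Mir3556b cannot be told apart from reads of the miRNA on the other strand. The remaining pair, rno-mir-29b-2 (2.57) and rno-mir-3556b-1 (1.51), is a second annotated copy on chromosome 1. All 6 features were at least 2-fold higher at P21 and also after scaling to the summed signal. Mir29a and Mir29c themselves were not analysed here.

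Other abundant miRNAs were also higher at P21. Mir99a (chr11), of a family tied to developmental timing, measured 47208.5 FPKM at P10, 54956.3 at P15 and 309489 at P21, a difference of 2.49 (2.32 to 2.67). Mir130a measured 54391.6 at P10, 26391.1 at P15 and 122694 at P21. Its difference of 2.22 (1.98 to 2.46) therefore includes a low value at P15. Mir138-1 and Mir138-2, which carry a brain-enriched miRNA found at synapses, differed by 1.94 and 1.70. Mir129-2, of another neuronal miRNA, measured 33767.3 FPKM at P15 and 102536 at P21, a difference of 1.60 (1.42 to 1.79).

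The largest rises of all rested on few P15 alignments. Mir6327 measured 508.596 FPKM at P15, from 4 alignments, and 25042.2 at P21, a difference of 5.62 (3.95 to 8.17). Its level from P1 to P10 lay between 2325.46 and 3735.42 FPKM, so P21 was also above every earlier age. The clone-named feature AABR07068306.1 had 5 alignments at P15 and a difference of 3.87 (1.68 to 7.88). The feature rno-mir-3584-1 had 12 and differed by 2.97 (1.84 to 4.39). Mir339 had 10 alignments at P15 and differed by 2.80 (1.62 to 4.32).

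Mir184, Mir205 and Mir141 were also among the 10 largest rises. Mir184 and Mir205 are abundant in lens and cornea, and Mir141 belongs to the epithelial mir-200 family. Mir184 measured 1985.53 FPKM at P15 and 13773.4 at P21, a difference of 2.79 (1.85 to 3.93). Its 2 sets at P15 gave 245.29 and 3725.8 FPKM, a far wider gap than the median gap of 0.70 on the log2 scale between the sets over 132 better covered miRNAs. Mir205 rested on 3 alignments at P15, with a difference of 3.25 (0.50 to 9.42), and Mir141 on 4, with 2.70 (0.23 to 7.55). All of these P15 alignments were in the deep set. The widened intervals of Mir205 (-1.29 to 25.01) and Mir141 (-1.51 to 19.03) spanned 0, and that of Mir184 (1.045 to 5.43) did not. The whole lens and cornea list, Mir184 and Mir205, took 45.67 alignments per 1000000 (APM) at P15 and 262.4 at P21, and between 23.66 and 823.5 over the 7 ages. The highest value was at P1. The part of non-retinal tissue in these rises was not tested.

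**Figure D2:**
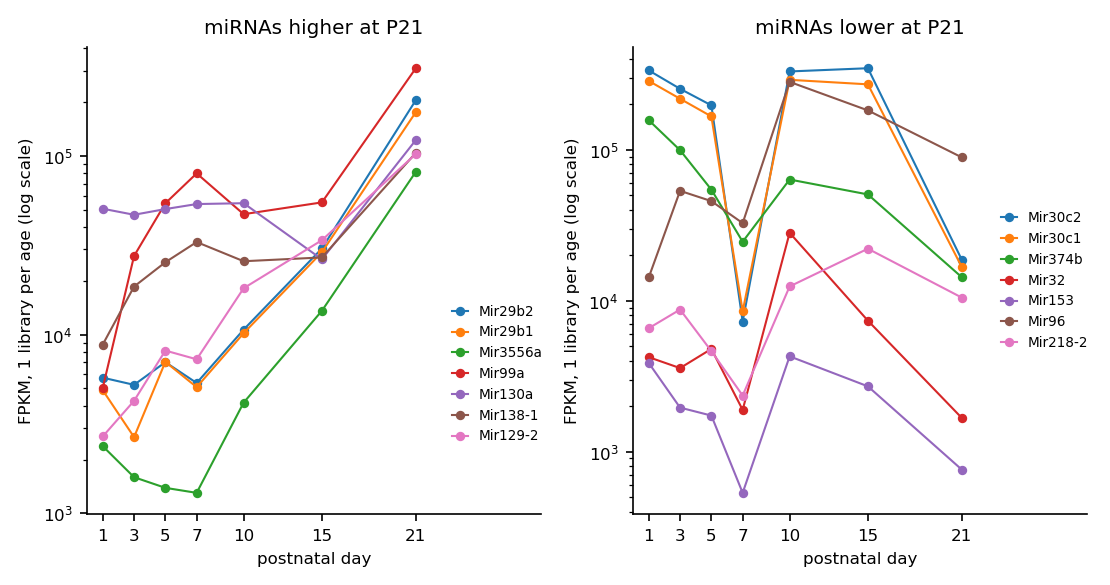
FPKM (log scale) against postnatal day for 7 miRNAs that were at least 2-fold higher at P21 than at P15 (left) and 7 that were at least 2-fold lower (right). Each point is 1 pooled library. Mir29b1 and Mir29b2 climbed from P7 onward, whereas both Mir30c loci dipped at P7 and at P21 only.

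The falls were led by the 2 loci of miR-30c. Mir30c2 (chr9:29562376-29562459, plus strand) measured 330539 FPKM at P10, 347172 at P15 and 18662.9 at P21. Its P15 level was 18.6 times that of P21, a difference of -4.22 (-4.36 to -4.08). Mir30c1 (chr5:139699877-139699965, minus strand) measured 290932, 271521 and 16708.7 FPKM at these ages, a difference of -4.02 (-4.16 to -3.89). They share the mature sequence printed above. The other mir-30 loci did not follow. Mir30a differed by -0.07, Mir30e by -0.12, Mir30b by -0.72 and Mir30d by 0.22. Mir30e is on the same strand of chromosome 5 as Mir30c1, and both lie within chr5:139699877-139702963. The mir-30 list as a whole took 89070 APM at P15 and 47970 at P21.

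Mir30c1 and Mir30c2 had been low once before. At P7 they measured 8510.15 and 7271.44 FPKM, against 166388 and 197044 at P5. The same held for most of the falls. Of the 22 miRNA features that were lower at P21, 17 were lower at P7 than at both P5 and P10, and 13 were at least 2-fold below the mean of P5 and P10 on the log2 scale. Among all 326 miRNA features, 174 and 57 were. For 11 of the 22, P7 and P21 were the lowest 2 of the 7 ages, against 26 of all 326. The 22 were chosen for a low value at P21, which favours this count. Over all 326 features, the difference at P7 and the difference at P21 had a Spearman correlation of 0.36. The libraries behind these differences were not shared, but all points share the same 5 libraries and the correlation is given as a description.

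The base composition of the hairpins moved with the difference as well. A RefSeq hairpin was found for 209 of the 249 features with a miRNA symbol (83.9%). The 53 hairpins with the lowest G and C content (28.6% to 44.3%) had a median difference of -0.02, with 7 called higher and 8 lower. The 52 with the highest content (57.3% to 81.3%) had a median of 0.48, with 17 called higher and 0 lower. The Spearman correlation of G and C content was 0.26 with the difference at P21 and 0.34 with that at P7, as descriptions over hairpins of the same libraries. The part of base composition or library preparation in the falls was not tested.

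**Figure D3:**
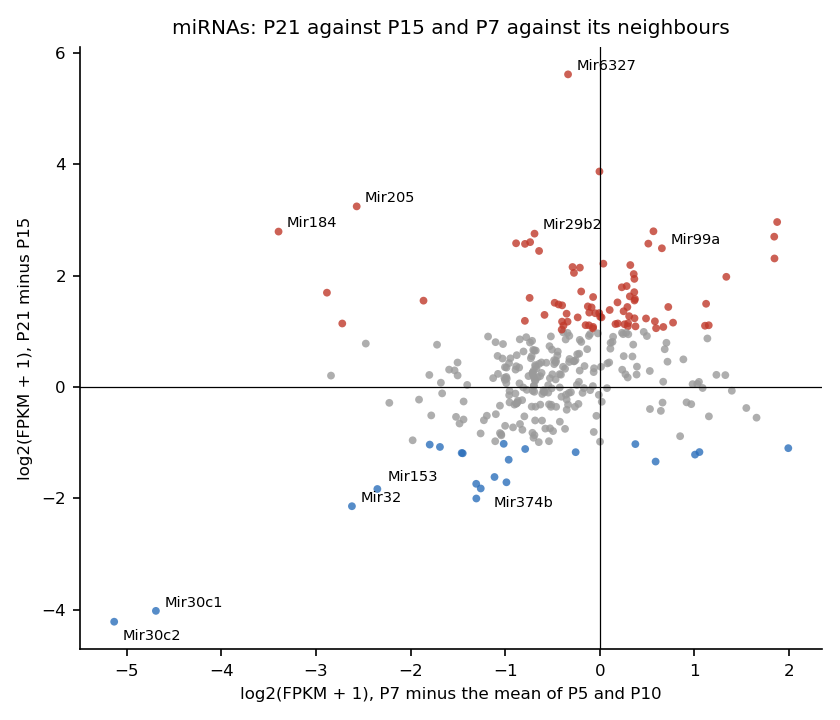
Each point is 1 of the 326 miRNA features. The horizontal axis gives log2(FPKM + 1) at P7 minus the mean of P5 and P10, and the vertical axis gives P21 minus P15. Red and blue points were at least 2-fold higher or lower at P21. Mir30c1 and Mir30c2 lie alone at the lower left, with Mir32 and Mir153 nearest to them.

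Among the other falls, Mir32 measured 28179.1 FPKM at P10, 7373.18 at P15 and 1670.24 at P21, a difference of -2.14 (-3.02 to -1.28). Its 2 sets at P15 gave 7249.3 and 7497 FPKM, both far above P21. The seed of miR-32-5p is shared by miR-25-3p and miR-92a-3p, and their loci Mir25 and Mir92a1 differed by -0.01 and -0.23. The pair of loci named rno-mir-340-1 differed by -2.003 and -1.71. Mir153, a neuronal miRNA that targets synaptic vesicle genes, went from 2706.05 to 759.233 FPKM, a difference of -1.83 (-2.41 to -1.25). Mir374b went from 50604 to 14303.2 FPKM, a difference of -1.82 (-2.07 to -1.58), and its level was lower at P21 than at any earlier age. Mir3579, with 21 of 22 bases in reverse complement to miR-380-5p, differed by -1.74. The clone-named AABR07056837.1 and AC124839.1 differed by -1.62 and -1.34, and the interval of the latter, from 5 alignments at P15, ran from -3.91 to 1.50. These are the 10 largest falls, and Mir493 followed with -1.31 (-2.48 to -0.08).

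Among the most abundant miRNAs, those of Mir124, Mir204 and Mir211 changed little in comparison, whereas others, Mir3570 and Mirlet7g among them, moved further. The 3 loci of Mir124, the most abundant neuronal miRNA, held 31.0% of the estimated alignments at P15 and 34.4% at P21. Mir124-1 measured 3220000 FPKM at P15 and 4500000 at P21, and the 3 loci differed by 0.46 to 0.48. Mir204 and Mir211, expressed in the pigment epithelium and inner retina, differed by -0.01 and 0.20. Their share of the library was 43400 APM at P15 and 36270 at P21, after 13820 at P1. Mir3570 differed by 0.97, and its mature sequence of 22 bases is the reverse complement of miR-181a-1-3p. Mirlet7g, the most abundant let-7 locus at P21, went from 248490 to 462272 FPKM, a difference of 0.90 (0.83 to 0.97).

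Photoreceptor miRNAs were lower. Mir183 and Mir96 are made from 1 transcript in photoreceptors and other sensory cells. Mir183 measured 733716 FPKM at P10, 559391 at P15 and 448779 at P21, a difference of -0.32 (-0.36 to -0.27). Mir96 measured 281916, 182431 and 89062.8 FPKM, a difference of -1.03 (-1.12 to -0.95). Together they took 42490 APM at P10, 34300 at P15 and 19930 at P21. In these pooled libraries a lower share of cells that make a miRNA and less of it per cell cannot be told apart.

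The neuronal list had 25 loci, and all 25 passed the filter. Its median difference was 0.46, against 0.31 for all miRNA features. Of the 25, 21 were above 0, 4 were called higher (Mir138-1, Mir138-2, Mir129-2 and Mir132) and 2 were called lower (Mir153 and Mir218-2). Among all 326 miRNA features, 212 were above 0, 23.9% were called higher and 6.75% lower, so the list had no excess of rises called. Scaled to the summed signal, the list median was 0.15, against -0.0050 for all miRNA features. Mir132, which is induced by neuronal activity, went from 2870.68 to 6761.19 FPKM, a difference of 1.24 (0.65 to 1.87). Its neighbour Mir212, from the same cluster, differed by 0.87 (0.02 to 1.85). Mir218-2 went from 22103.3 to 10479.4 FPKM, a difference of -1.08 (-1.30 to -0.85).

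Loci tied to developmental timing divided by family. All 5 loci of the Mir99/Mir100/Mir125 list were above the miRNA median, and 4 were called higher, with a median of 1.16. Among all miRNA features, 23.9% were called higher and 6.75% lower. Mir99b and Mir125a, 2 loci of 1 cluster, differed by 1.50 and 1.16, Mir100 by 1.13 and Mir125b1 by 0.99. The 10 let-7 loci had a median of -0.23, with 5 above 0 and 5 below, and 1 called lower. That was Mir98, with -1.19 (-1.60 to -0.77). Mirlet7g (0.90), Mirlet7i (0.77) and Mirlet7d (0.41) were higher, while Mirlet7b (-0.86), both Mirlet7c loci (-0.75 and -0.60) and Mirlet7a1 (-0.53) were lower. The let-7 share of the library was 29810 APM at P15 and 29910 at P21, so the loci differed in direction while their sum kept its share. Mature let-7 sequences are near-identical, and reads may have been divided among these loci in counting.

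The mir-181 list had a median of 0.98 over 5 loci, with Mir181b1 (1.33) and Mir181b2 (1.33) called higher, against 23.9% of all miRNA features. The 3 loci of Mir103/Mir107, which lie in the pantothenate kinase genes, differed by 0.92, 0.95 and 1.26. The Mir23/Mir27/Mir24 list, 5 loci, had a median of 0.64, and only Mir23a (1.05) was called. The Mir26/Mir101 list had a median of 0.04 and the list of mir-17-92 and its paralog clusters, such as that of Mir106b, Mir25 and Mir93, had 0.02 over the 14 of 15 loci that passed. Both medians fell below 0 under each of the 4 other scalings, as did those of Mir204/Mir211 and of Mir219-1, a miRNA of oligodendrocytes, at 0.23. The loci of mir-17-92 and its paralogs, which promote proliferation, together took 154400 APM at P1, 34460 at P15 and 22480 at P21. The Mir15/Mir16 list, tied to arrest of the cell cycle, had a median of -0.31 over 3 of 4 loci. The 2 of 5 Mir322/Mir503 loci that passed differed by -0.60 and 0.43, with intervals that spanned 0.

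Of the 34 listed miRNA loci of the imprinted Dlk1-Dio3 region, 30 passed the filter. Their median was -0.11, with 14 above 0 and 16 below. Mir323 (1.36), Mir329 (1.11) and Mir136 (1.10) were called higher, and Mir493 and Mir410 (-1.19) lower. Among all miRNA features, 23.9% were called higher and 6.75% lower, so the region had no excess of either. The 30 loci spread from -1.31 to 1.36, and Mir3579, which lies between them but was not on the list, was lower still at -1.74.

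Markers of other cell types were low or changed little. The vessel list of Mir126a, Mir143 and Mir145 had differences of -0.26, -0.28 and 0.22 and took 7141 APM at P15 and 5247 at P21. The blood and immune list, 4 of 7 loci passing, had none called. Its summed level was 430.6 APM at P15 and 445.4 at P21, and its largest difference was 0.91 for the erythroid Mir451a. The muscle loci Mir1b and Mir133b differed by 1.70 (0.07 to 3.98) and 1.14 (-0.96 to 4.33), and together took 23.33 APM at P15 and 53.23 at P21. Mir206, whose locus is shorter than 50 bases, is not in these sums. Of the mir-200 list, only Mir141 passed.

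**Figure D4:**
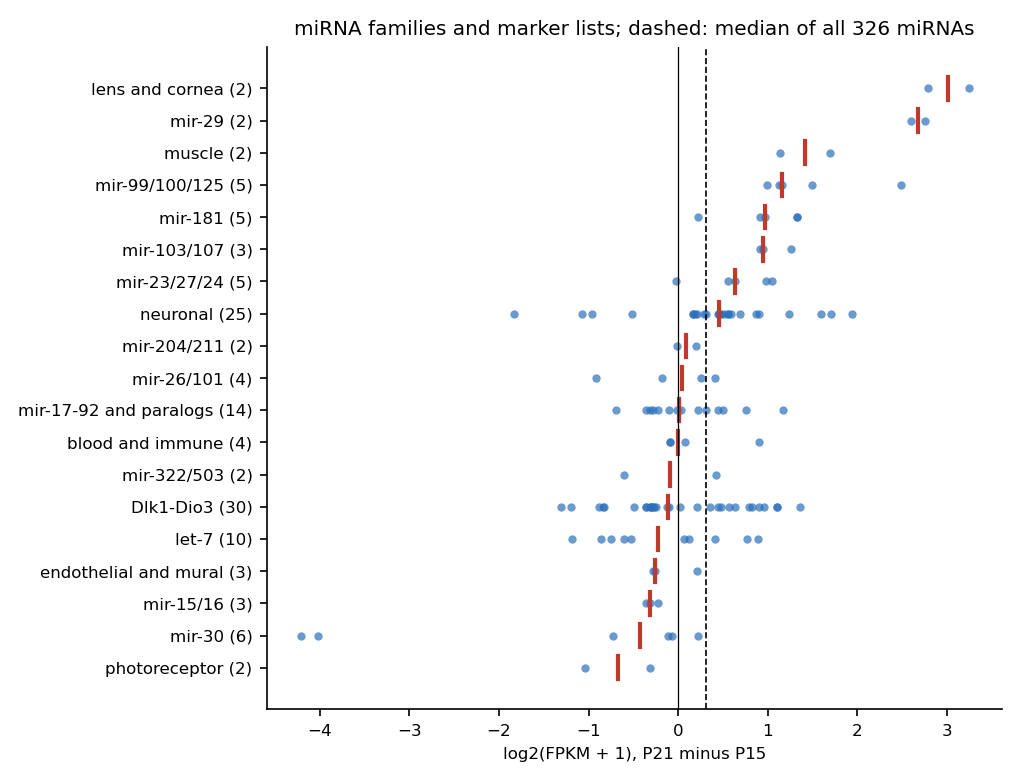
Each point is 1 miRNA locus that passed the filter, placed by log2(FPKM + 1) at P21 minus P15, in rows by family or marker list with the number of loci in parentheses. Red lines are row medians, and the dashed line is the median of all 326 miRNA features (0.31). The Mir99/Mir100/Mir125 loci all lie right of the dashed line, and the let-7 loci lie on both sides.

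The miRNAs as a class held 74.1% of the estimated alignments at P15 (exact interval 73.9% to 74.3%) and 72.2% at P21 (72.1% to 72.2%). Some other classes took a larger share at P21. rRNA went from 0.729% to 1.93%, snRNA from 2.19% to 2.79%, and mitochondrial tRNA from 3.18% to 4.21%. lincRNA went from 10.6% to 9.81%, processed transcripts from 2.08% to 1.74%, and snoRNA from 4.60% to 4.40%.

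The rRNA change was that of 5S rRNA. The 5S features took 5885 APM at P15 and 17820 at P21, a ratio of 3.03, and 25 of the 29 that passed were at least 2-fold higher. The 5.8S features took 1263 and 1347 APM. Of all 54 rRNA features, 59.3% were called higher, against 21.1% of all features. The level of 5S at P15 was the lowest of the 7 ages, after 11950 APM at P10 and 21210 at P1, so P21 was within the earlier range. Genes of these classes are present in many near-identical copies, so single copies are uncertain and sums are given.

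Spliceosomal snRNAs did not move as 1 group. U5 went from 1395 to 6780 APM, a ratio of 4.86, and all 11 of its features were called higher. Of all 92 snRNA features, 56.5% were called higher, against 21.1% of all features. U6 went from 994.2 to 3220 (ratio 3.24), U2 from 2087 to 5632 (2.70), U7 from 42.69 to 159.1 (3.73) and U4 from 152.6 to 311.5 (2.04). For all 4 of these, P15 was the lowest of the 7 ages. U2, U7 and U4 had been higher at P3 than at P21, with 9831, 219 and 546.3 APM, whereas U6 was highest at P21. U7 takes part in histone messenger RNA processing, not in splicing. U1 went the other way, from 16530 APM, its highest level of the 7 ages, to 11150, a log2 ratio of -0.57 (-0.62 to -0.51). U6atac, of the minor spliceosome, had a log2 ratio of -0.72 (-1.08 to -0.34), and U12 of 0.37 (-0.06 to 0.83). U5 had taken 13940 APM at P3 and 3271 at P10.

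**Figure D5:**
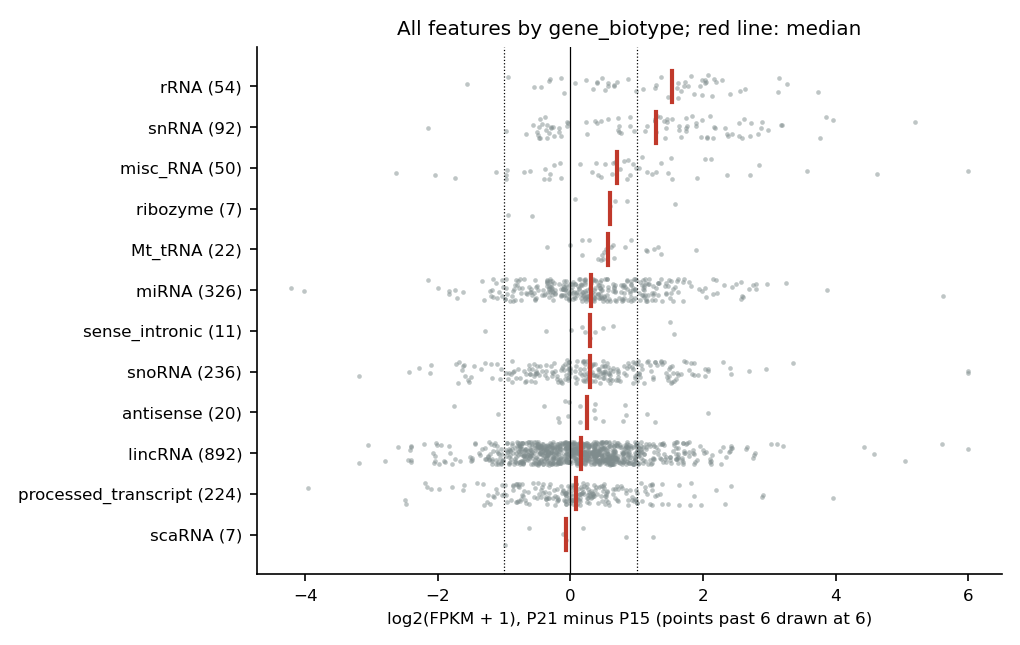
Each point is 1 of the features that passed the filter, in rows by gene_biotype with their number in parentheses, for classes with at least 5 such features. Red lines are medians of log2(FPKM + 1) at P21 minus P15, and 4 points past 6 are drawn at 6. The medians of rRNA (1.54) and snRNA (1.30) are right of the 2-fold line, and those of the other classes drawn lie between -0.06 and 0.71.

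Among snoRNAs, the C/D-named features, which guide methylation, took 33840 APM at P15 and 29970 at P21. The H/ACA-named features, which guide pseudouridylation, took 5133 and 7554, a ratio of 1.47. LOC252890, SNORD100 and SNORD74, the most abundant at P21, differed by -0.06, -0.04 and 0.17. SNORD58 went from 12595 to 1380.09 FPKM, a difference of -3.19 (-3.99 to -2.44), and SNORD70 differed by -2.29 (-4.86 to 0.08). SNORA62 differed by 3.36 (1.81 to 5.61), from few P15 alignments. Of the 28 SNORD113 copies that passed, which lie in the Dlk1-Dio3 region, 18 were called higher and 2 lower, 1 of them by -2.43. Of all snoRNA features compared, 24.6% were called higher, against 21.1% of all features. Summed, SNORD113 took 3938 APM at P15 and 5601 at P21, a ratio of 1.42. That sum was lower at P21 than at P5 (7044) or P7 (7981). The 2 copies listed at 0 at P15 measured 2.61 and 2.35 times the level of 3 P15 alignments at P21. Their counting intervals reached below 0, with lower ends of -0.16 and -0.33, so no rise is established for them.

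All 22 mitochondrial tRNA features passed, 6 were called higher (27.3%, against 21.1% of all features) and none lower. The leading features AY172581.3, AY172581.7 and AY172581.8 differed by 1.89, 1.37 and 1.32, and AY172581.17 by 1.14. AY172581.18 (-0.35), AY172581.10 (-0.0046) and AY172581.1 (0.17) were at the other end. Both mitochondrial rRNA features were higher, by 0.68 and 0.69. Y RNA took 6186 APM at P15 and 7412 at P21, and 7SK, which holds back transcription elongation, took 4053 and 5072. Single 7SK copies ranged from -2.63 to 6.78, and the copy with the largest difference had under 2 estimated alignments at P15, with an interval of 4.18 to 12.96.

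The 892 lincRNA features had a median of 0.16, with 127 called higher (14.2%) and 67 lower (7.51%). Of all features compared, 21.1% were called higher and 7.41% lower, with a median of 0.25. AABR07071813.1, the most abundant at P21, went from 3235.39 to 5962.5 FPKM, a difference of 0.88 (0.79 to 0.97), LOC102549726 differed by 0.51 and AABR07035780.5 by 1.60 (1.36 to 1.85). The largest rises were 2 features of LOC100912181, at 7.44 (4.49 to 16.5) and 5.61 (3.78 to 8.73), and AABR07014125.1 at 5.05 (3.49 to 7.45), all from under 6 alignments at P15. AABR07058976.1 went from 1456.51 to 158.83 FPKM, a difference of -3.19 (-3.51 to -2.90), and AABR07062477.2 and AC112328.1 differed by -3.05 and -2.80.

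The processed transcripts are noncoding transcripts named after the gene they belong to. Their median was 0.09, with 32 of 224 called higher (14.3%) and 23 lower (10.3%), against 21.1% and 7.41% of all features. Nhsl2 went from 804.904 to 5972.36 FPKM, a difference of 2.89 (2.38 to 3.45), Vom2r3 differed by 3.96 (2.80 to 5.47) and Sdk1, which codes for a synaptic adhesion molecule of retinal neurons, by 2.90 (1.02 to 6.02). Pebp4 (-2.49) was among the largest falls. One Plekha6 feature differed by -2.49 (-3.01 to -1.99) and another by 1.24 (0.94 to 1.56). Tnxb, among the most abundant, differed by 1.23.

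The small classes had few calls, beside 21.1% called higher and 7.41% lower of all features. Of 20 antisense features 3 were higher, LOC102555023 (2.07, 1.52 to 2.71) among them, and 2 lower, of which Rn60_4_0064.1 differed by -1.76 (-2.74 to -0.79). In scaRNA, which guides snRNA modification, 1 of 7 was called, SCARNA16, with an interval of -0.82 to 4.40, and SCARNA18 differed by 0.85 (0.36 to 1.37). Rmrp, the RNA of a ribosomal RNA processing enzyme, differed by 0.67 (-0.08 to 1.52). Of 11 sense intronic features, 2 were higher and 1 lower, Mln, with a difference of -1.29 (-2.18 to -0.37).

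Beside the other steps, P15 to P21 had the second largest share of miRNA features past 2-fold, after P7 to P10, as deposited. Past 2-fold lay 24.8% of the 326 features from P1 to P3, 13.2% from P3 to P5, 18.1% from P5 to P7, 38.3% from P7 to P10, 25.2% from P10 to P15 and 30.7% from P15 to P21. With each library scaled to its summed signal, these shares were 43.6%, 17.8%, 14.4%, 33.4%, 22.7% and 28.2% in the same order, so P1 to P3 and P7 to P10 then lay above P15 to P21. Neighbouring steps share a library. The median miRNA difference was -0.22 from P10 to P15 and 0.31 from P15 to P21. Of the 78 features called higher at P21, 60 had their highest level of the 7 ages at P21 and 18 had their lowest at P15. Of the 22 called lower, 10 had their lowest level at P21 and 5 had their highest at P15. Choosing features by their difference between P15 and P21 itself favours such ranks. The same counts over all 326 features are not given here, so these only describe the called features.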

How the data were processed

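Small RNA of pooled retinas (3 per age) was sequenced on an Ion Torrent PGM, per the study's methods 2 times per pool. The authors mapped trimmed reads to Ensembl noncoding RNAs (Rnor_6.0) and deposited FPKM values from Cufflinks and Cuffdiff (2.2.1.3 in the submitters' processing notes). Options and normalization between libraries are not given in the sources used here. The authors' fold changes, p-values and q-values for each pair of ages were not used.

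A feature's value was the same in every pair of ages, so 1 value per feature and age was taken. FPKM fell more steeply than length for short loci, so levels of different RNAs were compared as alignments per 1000000 of the library (APM). The FPKM of 1 alignment was found for 603 of 724 locus lengths and interpolated for the rest, and 100% of low values at P15 and P21 were whole-number sums (relative tolerance 6e-05) of the library's steps. Totals assume that the sets of a library gave equal signal. The sets were not assigned to sequencing runs. On simulated data for 5491 features, 100% of 4922 P15 values were split into the true sets, and 97.0% of 200 changed features lay in their interval for P21 against P15. The simulated sets differed by counting error only, without the extra spread seen between the real P15 sets. Coverage in the real data is therefore not known from it.

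Named were the 10 largest miRNA rises and falls, the 10 most abundant miRNAs, list members, and in other classes of 5 or more features the 3 largest rises, falls and most abundant; some of these are not reported here. Other features named were chosen after their values were seen. Members, lists and alternatives were chosen with earlier results of these data known. Of the 326 miRNA features, 251 had a symbol in the RefSeq gene list (GRCr8), used for names. Python 3.11.15, numpy 2.4.6, pandas 2.3.3, scipy 1.17.1 and matplotlib 3.10.9 were used.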

Additional observations from a re-analysis of the deposited data

How the results depend on the processing

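With 1 library per age, no spread between animals is known and no test was made. No paired analysis was possible because each age has 1 library. Scaling, the filter and the set of P15 used had the most effect on the miRNA counts (78 higher, 22 lower, median 0.31). Scaled to the miRNA total, 46 were higher and 43 lower (median -0.019). By median-of-ratios these were 46 and 44 (-0.024), by TMM 45 and 45 (-0.045), and scaled to the summed signal, an alternative added after the data were seen, 49 and 43 (-0.0050). Without a filter they were 147 and 47 of 493, at a mean of at least 100 FPKM 146 and 47 of 491, and at 100 estimated alignments 32 and 10 of 172. Also added later, the deep set of P15 alone gave 96 higher and 14 lower of 245 (median 0.75), the shallow set 64 and 22 (0.18), and both 65 and 16 (0.37). Pseudocounts of 0.1 and 10, summed loci and no length minimum kept each count within 1.5 times. By FPKM times locus length, the ratio of shares, P21 over P15, became 0.919 for antisense (from 1.02), 0.886 for lincRNA (0.925), 1.17 for misc_RNA (1.22), 1.36 for snRNA (1.27) and 0.891 for snoRNA (0.957). Without the 10 most abundant features it was 0.915 for miRNA (0.974) and 0.944 for lincRNA. Without a filter, the median was 0.048 for lincRNA (from 0.16) and 0.27 for misc_RNA (from 0.71). Of the 21 list medians, 17 kept their sign under all 4 scalings.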
